A study of Mus musculus with 10 samples.

Results

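The 8 organic ion transporter genes *Slco1a1*, *Slco1b2*, *Slco2a1*, *Slco2b1*, *Slc22a5*, *Slc22a7*, *Slc22a30* and *Slc47a1* were examined in mouse liver RNA. They were taken by name from the 16647 genes of the count table, with earlier results of these data known, and all 8 were listed and tested. Livers of both groups came from male humanized PXR-CAR-CYP3A4/3A7 mice. This commercial line carries the human receptors PXR and CAR and the human genes CYP3A4 and CYP3A7. All mice were 10 to 15 weeks old at the start of a high-fat diet (HFD), and after 8 weeks they were gavaged 3 times per week for 4 weeks, with the diet continued. The control group (5 livers) received vehicle of DMSO, PEG300 and corn oil, and the MI-883 group (5 livers) received MI-883, a compound studied as a CAR agonist and PXR antagonist, at 5 mg/kg in the same vehicle. The comparison addressed whether the transcripts of these carriers differ with treatment by such a ligand. Because these mice carry human receptors in mouse hepatocytes, the values describe mouse genes under human PXR and CAR.

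Solute carriers of the SLCO family (organic anion transporting polypeptides) take bile acids, bilirubin conjugates, steroid sulfates, thyroid hormones and many drugs from sinusoidal blood into hepatocytes. SLC22 carriers move smaller organic anions, organic cations and carnitine, and together the families decide which compounds reach the enzymes and efflux pumps inside the cell. PXR and CAR are xenobiotic-sensing nuclear receptors whose best-known liver targets are cytochrome P450 enzymes, conjugating enzymes and drug transporters. *Slc47a1* differs from the other members in its textbook role, as it encodes Mate1, a proton antiporter that exports organic cations into bile and urine and is not an uptake carrier.

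Sequences upstream of 4 genes are shown, because *Slco1a1* and *Slco1b2* are the members with the highest levels per length, and because *Slc22a5* lies near the related gene *Slc22a4*, which was the family gene that differed between the groups. Each is the 250 bases before a RefSeq start on GRCm38.p6, written 5′ to 3′ on the strand of the gene. Capitals mark the 6-base nuclear receptor motif AGNTCA on either strand. The windows lie at chr6:141946963-141947212 (minus strand) for *Slco1a1*, chr6:141629268-141629517 (plus strand) for *Slco1b2*, chr11:53891704-53891953 (minus strand) for *Slc22a5* and chr11:54028105-54028354 (minus strand) for *Slc22a4*. In GENCODE M21 all of them lie before the start of the gene, whereas RefSeq holds further transcripts of *Slco1b2*, *Slc22a5* and *Slc22a4* that begin farther upstream.
Slco1a1: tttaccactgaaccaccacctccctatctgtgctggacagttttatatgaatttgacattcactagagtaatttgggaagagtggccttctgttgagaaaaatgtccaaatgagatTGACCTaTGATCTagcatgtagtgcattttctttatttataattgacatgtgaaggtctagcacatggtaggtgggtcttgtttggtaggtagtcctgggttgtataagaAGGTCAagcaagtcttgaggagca
Slco1b2: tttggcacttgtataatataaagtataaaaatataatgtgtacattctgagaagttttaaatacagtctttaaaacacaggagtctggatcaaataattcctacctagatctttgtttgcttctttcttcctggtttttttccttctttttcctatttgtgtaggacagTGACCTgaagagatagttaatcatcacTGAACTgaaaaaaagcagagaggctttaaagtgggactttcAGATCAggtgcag
Slc22a5: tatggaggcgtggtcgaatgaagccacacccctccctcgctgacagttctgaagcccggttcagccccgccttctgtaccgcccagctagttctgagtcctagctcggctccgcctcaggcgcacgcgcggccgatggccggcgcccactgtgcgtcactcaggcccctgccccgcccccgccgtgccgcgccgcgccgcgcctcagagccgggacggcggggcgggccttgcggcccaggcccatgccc
Slc22a4: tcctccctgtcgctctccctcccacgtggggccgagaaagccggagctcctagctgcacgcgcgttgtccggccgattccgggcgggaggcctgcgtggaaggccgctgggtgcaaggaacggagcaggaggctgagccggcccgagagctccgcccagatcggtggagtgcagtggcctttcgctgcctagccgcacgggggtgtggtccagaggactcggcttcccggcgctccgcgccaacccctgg
The GC content of the windows was 40.4% for *Slco1a1* and 33.6% for *Slco1b2*, against 73.6% for *Slc22a5* and 71.2% for *Slc22a4*. Both *Slco1* windows held 3 copies of AGNTCA, and both *Slc22* windows held 0. In *Slco1a1* the copies began 134, 127 and 24 bases before the start, and in *Slco1b2* they began 81, 54 and 13 bases before it. The motif is frequent, as 41.3% of 32851 RefSeq promoter windows of this length held it in any number. The share of windows with 3 copies was not counted. The direct repeat AGNTCANNNNAGNTCA, 2 copies spaced by 4 bases, occurred in 0.103% of all windows and in 0 of the 4 shown. Windows were found in the RefSeq table for 6 of the 8 members.

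Sequencing depth was between 24014461 and 36221514 counts on genes per control liver (median 31734138) and between 23513665 and 28349963 per MI-883 liver (median 24581671). Levels are given as CPM, the counts of a gene after scaling to a common library size by TMM, with the S.D. over 5 livers. The 10 livers were separate samples by their labels, and the p-values measure the spread between these samples. Summed levels of 5 hepatocyte markers (*Alb*, *Ttr*, *Ahsg*, *Fgb*, *Hnf4a*) lay at 65104 to 75587 CPM in control livers and 56161 to 67655 CPM in MI-883 livers, so that the labelled tissue was borne out in every library. *Tf*, a further marker of this list, was not analysed here. In whole liver, fewer cells of a type and less RNA per cell cannot be told apart.

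None of the 8 transporters passed the threshold after treatment with MI-883. Over all 13219 tested genes, 1.03% had an adjusted P under 0.05 (edgeR quasi-likelihood test, Benjamini-Hochberg), with 0.764% higher and 0.265% lower, so that a count of 0 among 8 genes lies near this background. The unadjusted P was under 0.05 in 0 of the 8 members and in 15.6% of all tested genes. The Wald test of DESeq2, which called 3.5% of genes, likewise called 0 of the 8. In 0 of the 8 did the groups separate without overlap, against 3.98% of all genes. The median log2 fold change of the 8 was -0.04, with 4 positive and 4 negative values, and the median over all tested genes was 0.00.

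**Figure D1:**
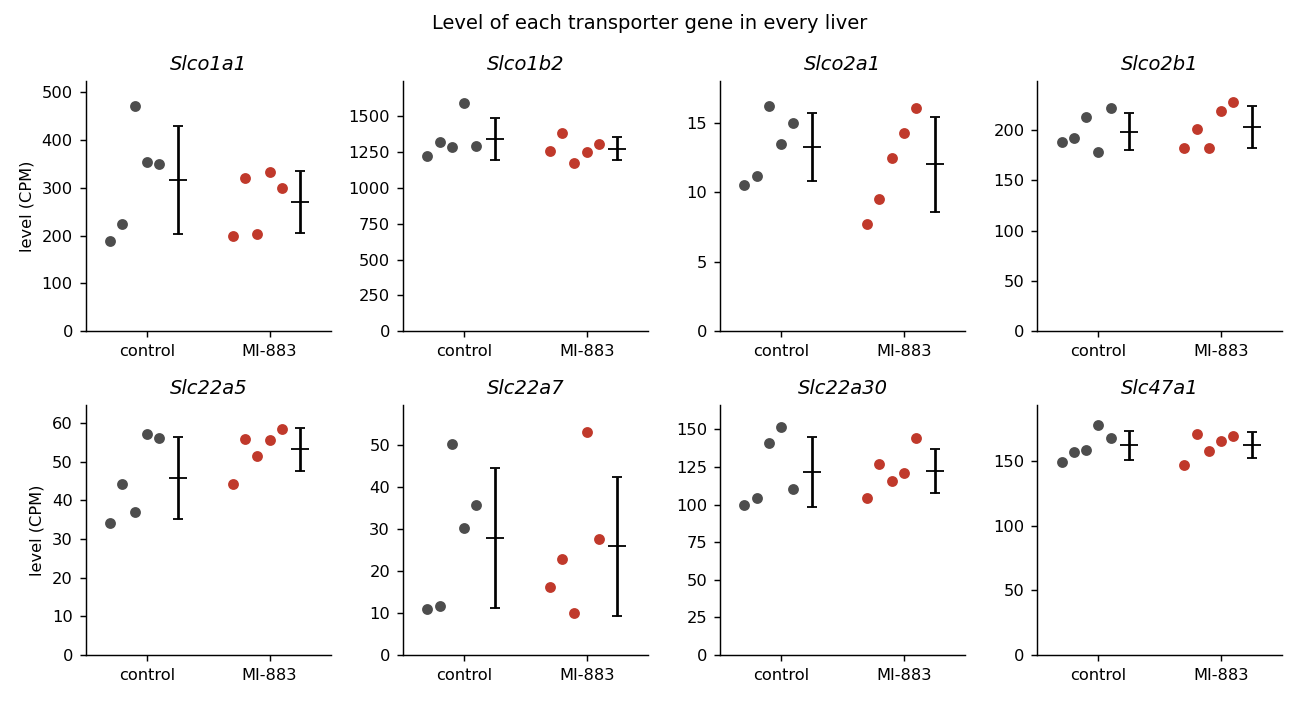
Level of each of the 8 transporter genes in CPM (vertical axes start at 0) in the 5 control livers (grey points) and the 5 MI-883 livers (red points), in order of replicate number, with the mean and S.D. beside each group. The groups overlap in all 8 panels, and *Slc22a7* shows the widest scatter, from 9.88 to 53.0 CPM over the 10 livers.

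Among the SLCO members, *Slco1b2* (Entrez gene 28253, GRCm38 chromosome 6, 141629452 to 141686646, plus strand) encodes Oatp1b2, a main sinusoidal carrier for bile acids, bilirubin conjugates and statins. It reached 1219.8, 1322, 1283, 1596 and 1294 CPM in control replicates 1 to 5. The MI-883 livers held 1256, 1385, 1175, 1251 and 1306 CPM. Control replicate 4 stood above all other livers, and the remaining 9 livers of both groups were intermingled. The means were 1343 ± 146 CPM in control livers and 1275 ± 77.6 CPM in MI-883 livers, a log2 fold change of -0.08 (SE, standard error, 0.0900, adjusted P = 0.719 from edgeR). The 95% interval of the fold ran from 0.830 to 1.09, so that a fall below 0.830 of the control level lay outside it. Between 28760 and 55096 counts per liver stood behind these values, and counting error was therefore small beside the spread between livers.

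*Slco1a1* (Entrez gene 28248, chromosome 6, 141907281 to 141946962, minus strand) lies in the same gene cluster and encodes Oatp1a1, a carrier of bile acids and steroid conjugates that is known to be higher in male liver. Control livers held 188, 224, 471, 354 and 349 CPM. In MI-883 livers the values were 198, 320.0, 202, 333 and 300.1 CPM. Each group held a pair of low livers apart from its 3 higher ones, and control replicate 3 was the highest of all. The mean was 317 ± 113 CPM in control livers and 271 ± 65.4 CPM in MI-883 livers (log2 fold change -0.23, SE 0.232, adjusted P = 0.667 from edgeR). Its interval was wide, from a fold of 0.603 to 1.21. Of the 100-base stretches of its transcripts, 0.614% also occur in *Slco1a4*, its paralog.

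*Slco2b1* (Entrez gene 101488, chromosome 7, 99657804 to 99711340, minus strand) encodes Oatp2b1, which carries steroid sulfates and several drugs. Its levels were 188, 192, 213, 179 and 222 CPM in control livers. With MI-883 they were 182, 202, 182, 219 and 228 CPM. Both groups covered nearly the same range. The log2 fold change was 0.03 (SE 0.0876, fold interval 0.895 to 1.16, adjusted P = 0.902 from edgeR). Exons of *Gm15635* and *Gm34280* overlap it on the opposite strand, and 4.25% of its 100-base stretches also occur in *Gm15635*. The libraries were directional, but the strand setting of the counting is not given in the sources used here.

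*Slco2a1* (Entrez gene 24059, chromosome 9, 103007061 to 103096002, plus strand) encodes the prostaglandin transporter, which removes prostaglandins from the extracellular space. It was the least abundant member, with 10.5, 11.1, 16.2, 13.4 and 15.003 CPM in control livers. MI-883 livers held 7.69, 9.51, 12.5, 14.3 and 16.1 CPM. The 2 lowest livers were MI-883 replicates 1 and 2, while the highest was control replicate 3, just above MI-883 replicate 5. Means of 13.3 ± 2.46 and 12.0 ± 3.41 CPM gave a log2 fold change of -0.14 (SE 0.187, fold interval 0.686 to 1.20, adjusted P = 0.755 from edgeR). With 215 to 464 counts per liver it was also the member with the fewest reads.

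Of the SLC22 members, *Slc22a5* (Entrez gene 20520, chromosome 11, 53864542 to 53891796, minus strand) encodes Octn2, the sodium-dependent carnitine carrier that supplies the cofactor for mitochondrial import of long-chain fatty acids. Control livers held 34.05, 44.2, 36.9, 57.0 and 56.1 CPM. The MI-883 values were 44.3, 55.9, 51.3, 55.7 and 58.4 CPM. Control replicates 1, 2 and 3 lay below every MI-883 liver, replicate 2 by a small margin, but control replicates 4 and 5 lay among the highest. The mean was 45.6 ± 10.6 CPM in control livers and 53.1 ± 5.54 CPM in MI-883 livers, the largest positive difference among the 8 members (log2 fold change 0.22, SE 0.140, adjusted P = 0.472 from edgeR). The fold interval was 0.944 to 1.44, and the exact permutation test of the group labels, two-sided on log2 CPM, gave P = 0.206. Of its 100-base stretches, 12.9% also occur in the adjacent gene *Slc22a21*, which was listed at 0.376 to 0.962 CPM over the 10 livers.

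*Slc22a7* (Entrez gene 108114, chromosome 17, 46432185 to 46438477, minus strand) encodes Oat2, a carrier of small organic anions and cyclic nucleotides. Its levels in control livers were 10.9, 11.8, 50.2, 30.3 and 35.8 CPM. In MI-883 livers they were 16.1, 23.0, 9.88, 53.0 and 27.7 CPM. The lowest and the highest of the 10 livers both belonged to the MI-883 group. Within a group the highest liver exceeded the lowest 4.60-fold in control and 5.37-fold in MI-883, and the coefficient of variation was 60.05% and 63.9%. Means of 27.8 ± 16.7 and 25.9 ± 16.6 CPM gave a log2 fold change of -0.10 (SE 0.460, adjusted P = 0.940 from edgeR). Its fold interval was wide with 5 livers per group, from 0.470 to 1.86. These bounds are not a limit of detection at the adjusted threshold.

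*Slc22a30* (Entrez gene 319800, chromosome 19, 8335371 to 8405111, minus strand) is one of a cluster of rodent SLC22 genes. Control livers held 99.8, 104, 141, 151 and 110.1 CPM. MI-883 livers held 104, 127, 116, 121 and 144 CPM. The MI-883 values lay inside the control range in all 5 livers. The log2 fold change was 0.01 (SE 0.124, fold interval 0.837 to 1.21, adjusted P = 0.977 from edgeR). This value is the least certain in identity, since 21.1% of the 100-base stretches of *Slc22a30* occur in other genes, nearly all of them in *Slc22a28* (20.9% of all *Slc22a30* stretches), and how reads were divided between them is not given in the sources used here.

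*Slc47a1* (Entrez gene 67473, chromosome 11, 61343400 to 61378842, minus strand), the cation exporter Mate1, was the most even member in control livers. Its control levels were 149, 157, 158, 178 and 168 CPM. Its MI-883 levels were 147, 171, 158, 166 and 169.85 CPM. No liver stood apart in either group. Both means were 162 CPM (S.D. 11.0 in control, 10.1 in MI-883), with a log2 fold change of 0.00 (SE 0.0702, adjusted P = 0.992 from edgeR). Its fold interval, 0.902 to 1.11, was the narrowest of the 8.

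Levels of different genes were compared per kilobase of exon, as CPM per kb. In control livers the order was *Slco1b2* (272 ± 29.7), *Slco1a1* (60.1 ± 21.5), *Slc47a1* (47.9 ± 3.26), *Slc22a30* (36.04 ± 6.92), *Slco2b1* (33.3 ± 3.02), *Slc22a5* (14.9 ± 3.46), *Slc22a7* (13.2 ± 7.94) and *Slco2a1* (0.978 ± 0.182 CPM per kb). MI-883 livers had the same order, from 259 ± 15.7 CPM per kb for *Slco1b2* to 0.886 ± 0.252 CPM per kb for *Slco2a1*. *Slco1b2* stood clear of every other member in both groups, and *Slco2a1* stood clear below. Among neighbours in this order, the ranges of *Slco1a1* and *Slc47a1*, of *Slc22a30* and *Slco2b1*, and of *Slc22a5* and *Slc22a7* overlapped in both groups. Those of *Slc47a1* and *Slc22a30* overlapped in control livers. The range of *Slco1a1* also overlapped those of *Slc22a30* and *Slco2b1* in both groups. The summed level of the 8 genes was 406 to 552 CPM per kb in control livers (median 485) and 411 to 494 CPM per kb in MI-883 livers (median 483). *Slco1b2* made up 57.1 ± 4.42% of this sum in control and 56.5 ± 3.14% in MI-883 livers. *Slco1a1* followed with 12.3 ± 3.46% and 11.1 ± 1.83%.

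**Figure D2:**
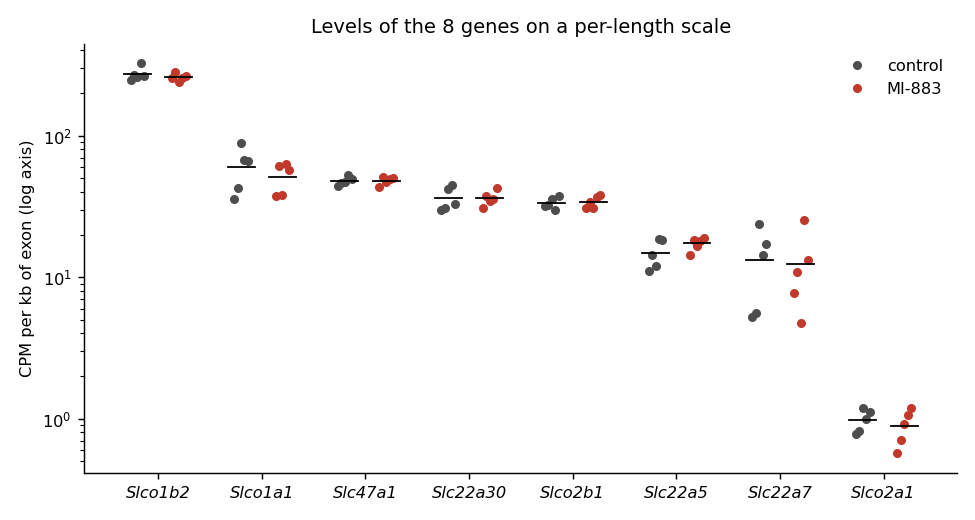
Level of the 8 genes in CPM per kb of exon (log axis), in falling order of the control mean, with each control liver in grey, each MI-883 liver in red and a bar at the group mean. *Slco1b2* lies at 272 CPM per kb in control livers and *Slco2a1* at 0.978 CPM per kb, and the order of the 8 is the same in both groups.

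The members differed in how much they varied between mice of the same group. The coefficient of variation in control livers was 6.80% for *Slc47a1*, 9.07% for *Slco2b1* and 10.9% for *Slco1b2*, against 35.7% for *Slco1a1* and 60.05% for *Slc22a7*. The order differed in part in MI-883 livers, with 6.09% for *Slco1b2*, 6.20% for *Slc47a1* and 10.3% for *Slco2b1*. There *Slco1a1* had 24.1%, *Slco2a1* 28.4% (18.6% in control livers) and *Slc22a7* 63.9%. *Slco1a1* and *Slc22a7* varied together, and the 4 livers lowest in *Slco1a1* (control replicates 1 and 2, MI-883 replicates 1 and 3) were also the 4 lowest in *Slc22a7*. Of these 4 livers, 3 were among the 4 lowest in *Slc22a30* as well. After removal of the group means, log2 CPM of *Slco1a1* and *Slc22a7* correlated with r = 0.92 over the 10 livers, the highest of the 28 member pairs, and *Slc22a5* and *Slc47a1* had r = 0.89. The lowest r was -0.14, between *Slco1b2* and *Slco2b1*. These are descriptions over 10 livers whose values share library and scaling.

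The same 4 livers had the lowest *Hsd3b5*, a male-specific hydroxysteroid dehydrogenase gene, and the highest *Spp1*, the osteopontin gene expressed by cholangiocytes and by injured or inflamed liver. The male-biased gene *Cyp7b1* was also lowest, and the cholangiocyte marker *Epcam* also highest, in these 4 livers. Other genes of these kinds differed, as *Mup20* was lowest in control replicate 5 (3751 CPM) and *Krt7* was highest in MI-883 replicate 5 (1.70 CPM). All of these genes were named after their values were seen. *Hsd3b5* was at 19.4, 24.0, 153, 70.1 and 54.0 CPM in control livers and 19.7, 38.3, 29.1, 79.6 and 54.4 CPM in MI-883 livers. *Spp1* was at 108, 65.8, 22.9, 29.5 and 20.3 CPM in control livers and 139, 47.1, 180.3, 29.3 and 44.0 CPM in MI-883 livers. *Slco1a1* and *Slc22a7* were thus low where *Spp1* was high, in livers of both groups. The labels give no batch that parts these livers, and the part of any other cell type in the levels of *Slco1a1* and *Slc22a7* was not tested. The summed cholangiocyte markers (*Krt19*, *Krt7*, *Epcam*, *Sox9*, *Spp1*; 0 of 5 passed the threshold) ranged from 25.0 to 117 CPM in control livers and from 35.1 to 190 CPM in MI-883 livers. All 5 had positive log2 fold changes (median 0.55). The unadjusted P was under 0.05 in 1 of them, *Sox9* (0.53, adjusted P = 0.178 from edgeR), against 15.6% of all tested genes.

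**Figure D3:**
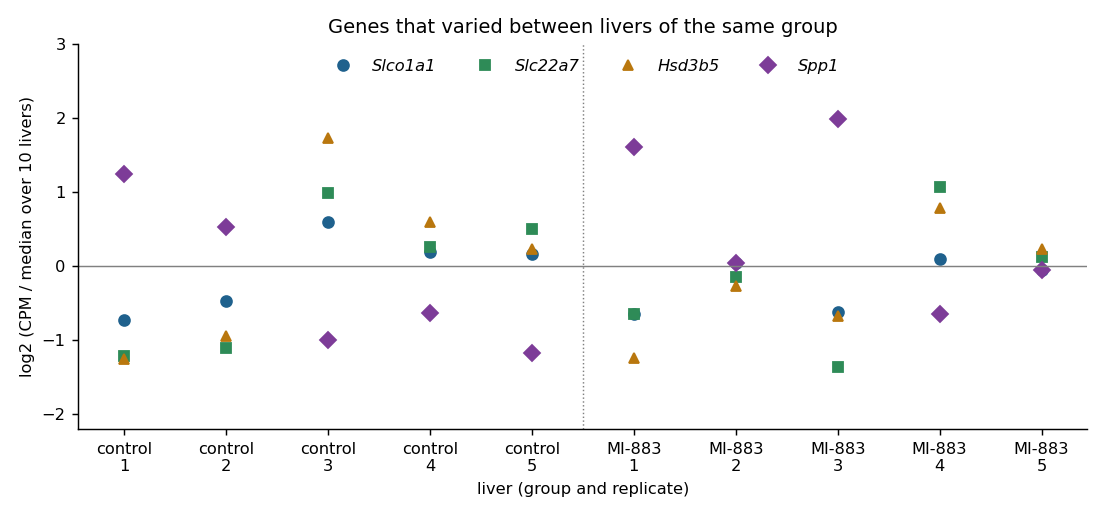
Levels of *Slco1a1*, *Slc22a7*, *Hsd3b5* and *Spp1* in each of the 10 livers, as log2 of CPM over the median of all livers, with a dotted line between the groups. The 4 livers lowest in *Slco1a1* (control 1 and 2, MI-883 1 and 3) are the 4 lowest in *Slc22a7* and *Hsd3b5* and the 4 highest in *Spp1*.

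Genes with the most similar pattern were ranked among 11612 genes by the correlation of log2 CPM over the 10 livers, with group means removed. As the highest of many correlations over few livers, these values are raised by the selection itself and are given as descriptions. *Slco1a1* was closest to *Ccdc151* (r = 0.98) and *Mup21* (0.98), the latter a major urinary protein gene, a family with male-biased liver expression. *Slc22a7* was closest to *Gins1* (0.98) and *Lifr* (0.98), the leukemia inhibitory factor receptor gene. *Slc22a30* had *S1pr5* (0.97) and the urinary protein gene *Mup13* (0.96) nearest to it. For *Slco1b2* these were *Smndc1* (0.96) and the lysosomal membrane gene *Lamp2* (0.96), for *Slco2a1* they were *Txnrd3* (0.98) and *Sema4g* (0.97), and for *Slco2b1* *Polg* (0.95) was among the nearest. *Slc22a5* was nearest to *Hfe* (0.97), the hemochromatosis gene, and to the cytochrome P450 gene *Cyp2c37* (0.96). *Cyp2c37* rose with MI-883 (log2 fold change 1.66, adjusted P = 0.00016 from edgeR), whereas *Slc22a5* did not pass the threshold. *Slc47a1* was nearest to *Arfgef1* (0.95) and *Rdx* (0.93), the radixin gene.

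Beyond the 8 members, 30 further *Slco*, *Slc22a* and *Slc47a* genes were listed and 16 of them were tested. Of the 16, 1 rose, 0 fell and 15 did not pass the threshold, with a median log2 fold change of 0.14. Over all tested genes, 1.03% passed it. The unadjusted P was under 0.05 in 7 of the 16, 6 of them with a positive log2 fold change, against 15.6% of all tested genes. The groups did not overlap in 2 of the 16, against 3.98% of all tested genes. These 2 were *Slc22a4* and *Slco3a1* (log2 fold change 0.44, SE 0.150, adjusted P = 0.185 from edgeR), the latter named after its values were seen. The riser was *Slc22a4* (Entrez gene 30805, chromosome 11, 53983115 to 54030040, minus strand), which encodes Octn1, the ergothioneine carrier. It was at 2.77, 3.34, 3.35, 3.65 and 4.21 CPM in control livers. In MI-883 livers it was at 4.82, 6.42, 4.70, 7.61 and 5.71 CPM. Every MI-883 liver lay above every control liver. The log2 fold change was 0.76 (SE 0.160, fold interval 1.33 to 2.15, adjusted P = 0.0424 from edgeR), near the threshold. Leaving out single livers gave log2 fold changes of 0.65 to 0.83, with an adjusted P under 0.05 in 2 of 10 fits (without MI-883 replicate 1, 0.0363, and without MI-883 replicate 3, 0.0442) and up to 0.103 in the others.

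*Slc22a4* and *Slc22a5* lie on either side of *Slc22a21* on chromosome 11, and their ratio was taken within each liver. It was 0.0812, 0.0757, 0.0908, 0.0640 and 0.0751 in control livers. It was 0.109, 0.115, 0.0916, 0.137 and 0.0978 in MI-883 livers. The groups did not overlap, although control replicate 3 and MI-883 replicate 3 lay close together. The mean log2 ratio differed by 0.50 (SE 0.130). This ratio, like that of *Abcc3* to *Slco1b2*, was chosen after the values of its genes were seen, and both are given as descriptions, with no test.

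Among the other well-expressed family genes per length, *Slc22a18* was at 101 ± 6.25 CPM per kb in control livers and 111 ± 7.09 CPM per kb with MI-883 (log2 fold change 0.14, adjusted P = 0.364 from edgeR). *Slco1a4*, the Oatp1a4 gene of the same cluster as *Slco1a1*, was at 16.5 ± 2.93 and 14.8 ± 1.35 CPM per kb (log2 fold change -0.15, adjusted P = 0.558 from edgeR).

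Kidney carriers of the family were near 0 in most livers. Counts of *Slc22a12*, the urate carrier, were 0 to 3 in control livers and 2, 30, 12, 7 and 0 in MI-883 livers. *Slc22a6* (Oat1) had 0 to 2 counts in control livers and 0, 23, 5, 0 and 0 counts in MI-883 livers. *Slc22a8* (Oat3) had 0 to 3 counts in control livers and 2, 15, 5, 3 and 2 counts in MI-883 livers. All of these were highest in MI-883 replicate 2, and they were named after their values were seen. The 5 kidney tubule markers (*Slc34a1*, *Umod*, *Kap*, *Lrp2*, *Slc5a2*; 0 of 3 tested passed the threshold, adjusted P = 0.155 for *Kap* from edgeR) summed to 0.196 to 1.71 CPM in control livers and 0.718 to 28.1 CPM in MI-883 livers, with *Kap* at 20.8 CPM in MI-883 replicate 2 and 7.18 CPM in MI-883 replicate 3. *Slc34a1* was at 4.82 and 1.92 CPM in these livers and at most 0.439 CPM in the others, and *Umod* was highest in MI-883 replicate 3, at 23 counts. *Lrp2* was at 1.81, 1.04 and 1.63 CPM in MI-883 replicates 2, 3 and 5 and at most 0.736 CPM in the others. All 3 tested markers had an unadjusted P under 0.05 in edgeR, against 15.6% of all tested genes. Their median log2 fold change was 3.28. Kidney also expresses *Slc22a4*, *Slc22a5* and *Slc47a1*, and its part in their levels was not tested. Without MI-883 replicate 2 the log2 fold change was 0.20 for *Slc22a5* (adjusted P = 0.550) and -0.02 for *Slc47a1* (adjusted P = 0.933, both from edgeR). For *Slc22a4* it was 0.72 (adjusted P = 0.0920 from edgeR), so that its call was lost. Without MI-883 replicate 3 the values were 0.23 for *Slc22a5* (adjusted P = 0.603), 0.01 for *Slc47a1* (adjusted P = 0.964) and 0.83 for *Slc22a4* (adjusted P = 0.0442, all from edgeR). Without both livers, a setting chosen after seeing the data, they were 0.21 for *Slc22a5* (adjusted P = 0.706), -0.01 for *Slc47a1* (adjusted P = 0.976) and 0.80 for *Slc22a4* (adjusted P = 0.149, all from edgeR).

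Carnitine genes were examined because *Slc22a5* carries carnitine. Of 10 genes for carnitine synthesis and the carnitine shuttle, 8 were tested and 0 passed the threshold (median log2 fold change -0.04), against 1.03% of all tested genes. *Cpt1a*, the rate-limiting acyltransferase of mitochondrial fatty acid oxidation and the most expressed of them, was at 586 ± 65.01 CPM in control livers and 573 ± 68.5 CPM in MI-883 livers (log2 fold change -0.03, adjusted P = 0.908 from edgeR).

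Partners of the members at the hepatocyte membrane differed in part. Among 11 carriers, namely efflux pumps with the sodium-dependent bile acid uptake carrier *Slc10a1*, 10 were tested, 2 rose and 0 fell, with a median log2 fold change of 0.16. Over all tested genes, 0.764% rose and 0.265% fell. *Abcc4* encodes the basolateral pump Mrp4 for bile acids and conjugates, and it rose from between 2.82 and 4.55 CPM in control livers to between 14.3 and 24.0 CPM with MI-883. Its log2 fold change was 2.45 (SE 0.170, adjusted P = 7.2e-06 from edgeR). *Abcc3*, the basolateral pump Mrp3 for glucuronides, rose from between 428 and 513 CPM in control livers to between 571 and 752 CPM with MI-883. Its log2 fold change was 0.46 (SE 0.0915, adjusted P = 0.0282 from edgeR, and 0.0228 to 0.0908 without single livers). It stayed under 0.05 without control replicate 1, MI-883 replicate 1 or MI-883 replicate 3, and was over 0.05 without any other single liver. *Slc10a1* itself, with *Slco1b2* the best-known bile acid uptake carrier, was at 698 ± 118 CPM in control livers and 719 ± 55.2 CPM in MI-883 livers (adjusted P = 0.895 from edgeR).

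The ratio of *Abcc3* to *Slco1b2*, an efflux pump over an uptake carrier of the sinusoidal membrane, was 0.421, 0.379, 0.367, 0.268 and 0.360 in control livers. In MI-883 livers it was 0.455, 0.459, 0.514, 0.601 and 0.548. All MI-883 livers lay above all control livers. The mean log2 ratio differed by 0.53 (SE 0.133), which includes the rise of *Abcc3* described above.

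**Figure D4:**
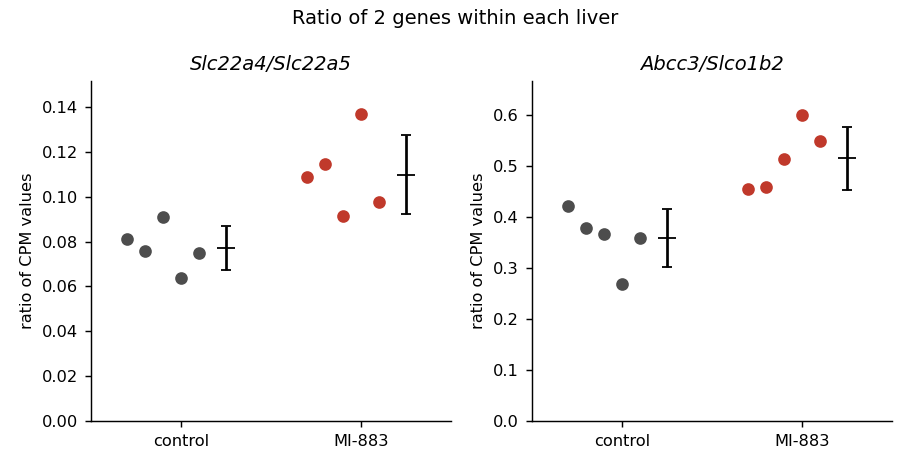
Ratio of *Slc22a4* to *Slc22a5* and of *Abcc3* to *Slco1b2* within each control (grey) and MI-883 (red) liver, with the mean and S.D. beside each group and axes from 0. The MI-883 livers lie above all control livers in both ratios, from 0.0916 against at most 0.0908 in the first and from 0.455 against at most 0.421 in the second.

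Of 15 regulator and scaffold genes, all 15 were tested, 1 rose and 0 fell, with a median log2 fold change of -0.02. Over all tested genes, 0.764% rose and 0.265% fell. The riser was *Pdzk1*, which encodes a PDZ scaffold that holds Oatp1a1 at the hepatocyte membrane. It was at 101 to 117 CPM in control livers and 128 to 157 CPM in MI-883 livers, without overlap (log2 fold change 0.34, SE 0.0718, adjusted P = 0.0415 from edgeR). This call was lost without any single liver other than MI-883 replicate 3 (adjusted P from 0.0452 to 0.115 over the 10 fits). *Slco1a1*, whose protein the scaffold binds, had a log2 fold change of the opposite sign that did not pass the threshold. *Ahr*, the aryl hydrocarbon receptor gene, was at 23.5 to 50.8 CPM in control livers and 53.0 to 84.8 CPM with MI-883, also without overlap. Its log2 fold change of 0.70 (SE 0.191) passed in DESeq2 (adjusted P = 0.0145) and not in edgeR (adjusted P = 0.109), and it was named after its values were seen.

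**Figure D5:**
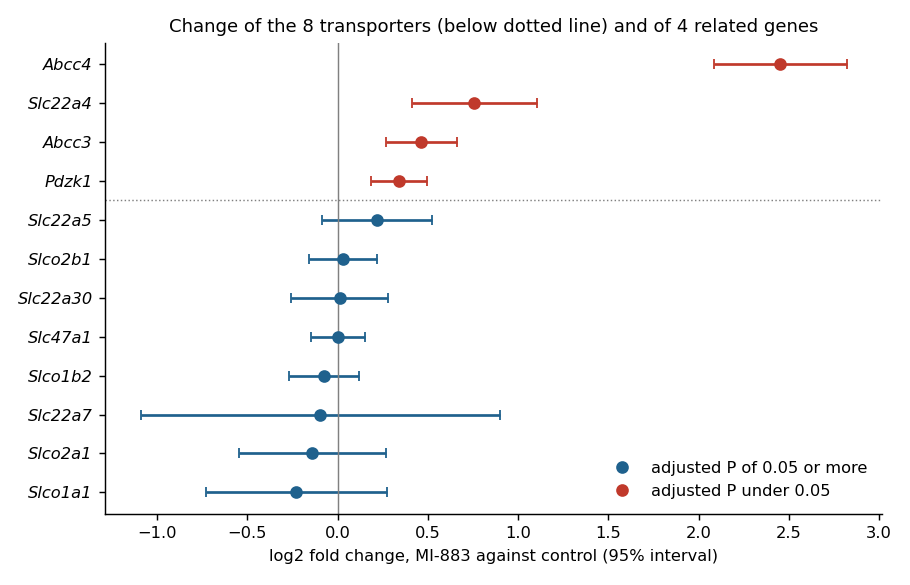
Log2 fold change of MI-883 against control livers with its 95% interval from edgeR for the 8 members (below the dotted line) and for *Abcc4*, *Slc22a4*, *Abcc3* and *Pdzk1* (above it), with red for an adjusted P under 0.05 and blue for 0.05 or more. The intervals of all 8 members include 0, and that of *Slc22a7* is the widest, from -1.09 to 0.90.

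Male-biased liver genes were counted because *Slco1a1* belongs among them. Of 10 such genes, all 10 were tested, 4 rose and 0 fell, with a median log2 fold change of 0.48. Over all tested genes, 0.764% rose and 0.265% fell. The list was drawn up with earlier results of these data known. The risers were *Cyp2d9* (0.58, adjusted P = 0.0264), *Cyp4a12a* (0.85, 0.0428), *Cyp4a12b* (0.80, 0.0141) and the complement gene *C6* (0.59, 0.0306, all from edgeR). *Slco1a1* was not among the risers, and *Hsd3b5*, which followed *Slco1a1* from liver to liver, had a log2 fold change of -0.54 and did not pass the threshold. *Cyp4a12b* kept an adjusted P under 0.05 in 10 of 10 fits without single livers, whereas *Cyp2d9* did so in 4 (without control replicate 1 or MI-883 replicates 1, 3 or 4), *C6* in 3 (without control replicates 1 or 3 or MI-883 replicate 1) and *Cyp4a12a* in 1 (without control replicate 4). Of 10 female-biased genes, 4 were tested and 0 passed. *Cyp2b9*, the most expressed of these, was at 17.6 ± 10.8 CPM in control livers and 7.80 ± 5.51 CPM in MI-883 livers (adjusted P = 0.327 from edgeR).

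Markers of other liver cell types did not pass the threshold in any list. Summed levels in control and MI-883 livers were 129 to 178 and 146 to 202 CPM for 7 sinusoidal endothelial markers, the cell type in which *Slco2a1* is also known. They were 182 to 272 and 141 to 320 CPM for 6 Kupffer cell markers, 377 to 516 and 402 to 586 CPM for 6 stellate cell markers, and 8.86 to 17.0 and 11.7 to 18.8 CPM for 6 leukocyte markers. The groups overlapped in each sum. Of the 7 endothelial markers, 6 had positive log2 fold changes (median 0.19) and 3 an unadjusted P under 0.05, among them *Oit3* (0.35), *Lyve1* (0.32) and *Pecam1* (0.29). The most expressed gene of each of these lists did not pass the threshold, with log2 fold changes of -0.13 for *Clec4g* (endothelium, the one negative value of that list), 0.04 for *Cd5l* (Kupffer cells), 0.16 for *Dcn* (stellate cells) and 0.04 for *Ptprc* (leukocytes). The hepatocyte markers had negative log2 fold changes in 5 of 5 genes, with 0 past the threshold after adjustment and 3 with an unadjusted P under 0.05, against 15.6% of all tested genes. The values were -0.38 for *Fgb*, -0.29 for *Ahsg* and -0.25 for *Ttr*, whose groups did not overlap, and -0.16 for *Alb* and -0.003 for *Hnf4a*. Their adjusted P were 0.197, 0.267, 0.257, 0.514 and 0.993 from edgeR, and their part in the levels of the transporters was not tested.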

How the data were processed

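Liver RNA of 5 control and 5 MI-883 mice was sequenced from directional libraries. The authors aligned reads to the mouse genome (mm10) with STAR, counted them per gene with featureCounts and deposited raw counts by Entrez gene, without normalization. The submitters' processing notes also name fastp 0.23.0. Of 16647 genes, 16644 matched a RefSeq symbol (GRCm38.p6), and exon lengths and transcript sequences were from GENCODE M21. The 13219 genes whose counts over all livers totalled 60 or more were tested with edgeR 4.0.16 in R 4.3.3 (TMM, quasi-likelihood test, condition alone, Benjamini-Hochberg over all tested genes, threshold 0.05). Groups were taken from the labels. Exact permutation tests of mean log2 CPM can give no P under 0.00794. The pipeline was tested on simulated data.

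The members and gene lists were chosen with earlier results of these data known. Named were the 8 members, other family genes and list genes under the threshold, the 3 most expressed other family genes per length, the most expressed gene of a list in which none passed, and the 2 genes most alike to each member. Some genes under this rule are not reported here. *Slc10a1*, *Hsd3b5*, *Spp1*, *Cyp7b1*, *Mup20*, *Slc22a12*, *Slc22a6*, *Slc22a8*, *Slco3a1*, *Ahr* and further marker genes were added after their values were seen. Alternatives were the Wald test of DESeq2 1.42.0, its size factors, library totals, a minimum of 60 counts in every liver, filterByExpr, no filter, a block for the replicate number, the longest transcript as length, leaving out each liver and, chosen after seeing the data, leaving out MI-883 replicates 2 and 3 together. The counts behind the lowest member, *Slco2a1*, were 215 to 464 per liver, and precision was limited by the number of livers.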

Additional observations from a re-analysis of the deposited data

Results flagged for a closer look

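*Slco1b2* was at 1595.6 CPM in control replicate 4, far above the nearest control liver (1321.5 CPM). Without this liver the log2 fold change of *Slco1b2* was -0.005 (adjusted P = 0.989 from edgeR), against -0.08 with it. The male-biased complement gene *C6* was at 329.52 CPM in control replicate 3, against 240.84 CPM in the nearest control liver. Of 32 groups of 5 livers examined (16 genes in 2 groups), 2 held such a liver, and 1.6 would do so by chance.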

How the results depend on the processing

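None of the 8 members passed the threshold in any of 144 refits (18 alternatives for each), and the lowest adjusted P was 0.240. The sign of a member changed in 20 of these refits, of which 3 did not leave out single livers. Without single livers the log2 fold change was -0.0155 to 0.0727 for *Slco2b1*, -0.53 to 0.23 for *Slc22a7*, -0.0532 to 0.105 for *Slc22a30* and -0.0253 to 0.0384 for *Slc47a1*, and without a filter it was -0.0014 for *Slc47a1*. The number of genes called over all tested genes was 136, against 463 with DESeq2 and 62 to 208 without single livers. Without single livers the calls were 0 to 1 among other family genes, 1 to 2 among efflux partners, 0 to 1 among regulators and scaffolds, and 1 to 3 among male-biased genes. Regulators and scaffolds had 2 calls with DESeq2 (*Pdzk1* and *Ahr*) and 0 without a filter. Without both MI-883 replicates 2 and 3, a setting chosen after seeing the data, 54 genes were called, among them 0 other family genes, 1 efflux partner, 0 regulators and scaffolds and 2 male-biased genes, and the log2 fold change was 0.2199 for *Slc22a7* and -0.0103 for *Slc47a1*. The causes were not tested.

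The correlation of same-numbered livers was over 0.1 in 1 of 5 pairs (0.36 for replicate 1), and 0 pairs were best matched by number. With 5 pairs this cannot settle whether the replicate numbers pair the livers. With the replicate number as a block, 89 genes were called, among them 0 other family genes, 1 efflux partner, 0 regulators and scaffolds and 1 male-biased gene. The per-length order of the 8 members was the same with the longest transcript as length. The spread between livers, more than depth, limited what could be detected for *Slc22a7* and *Slco1a1*.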
